A study of Mus musculus with 4 samples.

Results

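Leukocytes leave the blood and settle in skin by means of adhesion receptors and their ligands, and 37 of these genes, of 38 chosen by symbol alone among the 32285 genes in the deposited count matrices, are described here. They comprise 18 integrin α chains, 8 integrin β chains, the selectins Sele and Selp and 9 other genes. Those 9 are the selectin ligand Selplg, the ligands Icam1, Icam2, Icam4, Icam5, Vcam1 and Madcam1, the endothelial junction protein Pecam1 and the hyaluronan receptor Cd44. All 37 had at least 1 unique molecular identifier (UMI, which marks 1 captured mRNA) in the cells kept.

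The data were single-cell RNA profiles of neck and ear skin from female C57BL/6J mice aged 6 to 8 weeks, with the skin of 3 mice pooled in each of 4 libraries. The untreated library came from mice for which the labels name no vehicle. The MC903 library came from skin given 1 nmol calcipotriol, a vitamin D analogue that brings on a dermatitis like atopic eczema, in 100 µL ethanol daily for 9 days. For the oxazolone libraries, mice were sensitised with 100 µL of the hapten oxazolone at 3% in acetone and mineral oil and, from 7 days later, painted with 1.0% every other day, with harvest at day 10 in the first library and at day 16 in the second. The neck was shaved before treatment, and in all 4 libraries the skin was digested with enzymes and passed repeatedly through dead-cell removal before loading on the 10x Genomics 3′ platform. Each group was thus 1 library of pooled mice, so no difference between groups has a replicate check and none was tested; intervals below are 95% intervals and cover counting error only.

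Integrins are heterodimers of an α and a β chain that bind matrix proteins or counter-receptors on other cells. The β2 integrins and the α4 integrins of leukocytes bind ICAM and VCAM-type ligands on endothelium, the β1 integrins of stroma bind collagens, laminins and fibronectin, and α6β4 holds basal keratinocytes to the basement membrane. Selectins start the process: E-selectin (Sele) and P-selectin (Selp) on activated endothelium bind sugar-bearing ligands on leukocytes, of which PSGL-1 (Selplg) is the best known, so that leukocytes roll along the vessel wall before integrins arrest them.

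The 4 libraries held 7755 (untreated), 8708 (oxazolone day 10), 8199 (oxazolone day 16) and 4185 (MC903) barcodes with 73054242 to 119717836 UMIs per library, and 26051 cells were kept. Between 5 and 13 kept barcodes were shared by any pair of libraries. Cells were clustered without the 38 genes, and 20 classes were named from markers that hold none of them. The classes were present in very unequal numbers. There were 16 neutrophil-like cells in untreated skin against 1792, 4104 and 284 in the oxazolone day 10, day 16 and MC903 libraries, 568 dendritic-like cells against 245, 78 and 39, and 2156 fibroblast-like cells against 742, 434 and 1627. Blood endothelial-like cells numbered 19, 107, 92 and 48 in the same order. Levels are CPM, the gene's share of the UMIs summed over the cells of a class in a library, scaled to 1000000; the 3′ counts carry no length correction, so levels are compared between cells for 1 gene and not between genes. A ratio between libraries was taken where both held at least 50 cells of the class and the gene had at least 30 UMIs over both, and it was counted as higher or lower at 2-fold or more.

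Over all classes, 208 pairs of a member and a class could be compared between oxazolone day 10 and untreated skin, of which 27 were higher and 25 lower. Among all genes, 7.60% of the gene and class pairs were higher and 7.05% lower in that comparison. At oxazolone day 16, 41 of 155 pairs were higher and 21 lower than in untreated skin, against 7.71% and 17.0% over all genes. MC903 skin had 32 higher and 15 lower of 153, against 7.23% and 9.73%. These 3 comparisons share the untreated library. Member and class pairs were thus called higher more often than pairs over all genes in each comparison, whereas the lower calls were more frequent than the background at oxazolone day 10, less frequent at day 16 and about as frequent in MC903 skin. With at least 100 UMIs in place of 30, 10 of 150, 20 of 112 and 21 of 116 pairs were higher in the 3 comparisons, against 5.67, 6.62 and 5.45% over all genes at that minimum, so that at day 10 the share of higher pairs lay near the background. Without the 8 leukocyte members outside leukocytes, an alternative added after the values were seen, 20 of 190, 31 of 141 and 27 of 143 pairs were higher.

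Signal from neutrophils was present in other cells of the treated libraries, and its part in the results below was not tested. In fibroblast-like cells the 6 neutrophil markers (S100a8, S100a9, Csf3r, Cxcr2, Retnlg and G0s2) summed to 38.9, 332, 1921 and 418 CPM in the order untreated, oxazolone day 10, oxazolone day 16 and MC903, with none of the 6 at 0; this order of libraries is kept in every list of 4 values below. In blood endothelial-like cells they summed to 5.21, 378, 4482 and 7010 CPM, with only G0s2 above 0 in untreated skin. Genes that leukocytes carry are therefore given in their own classes first.

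**Figure D1:**
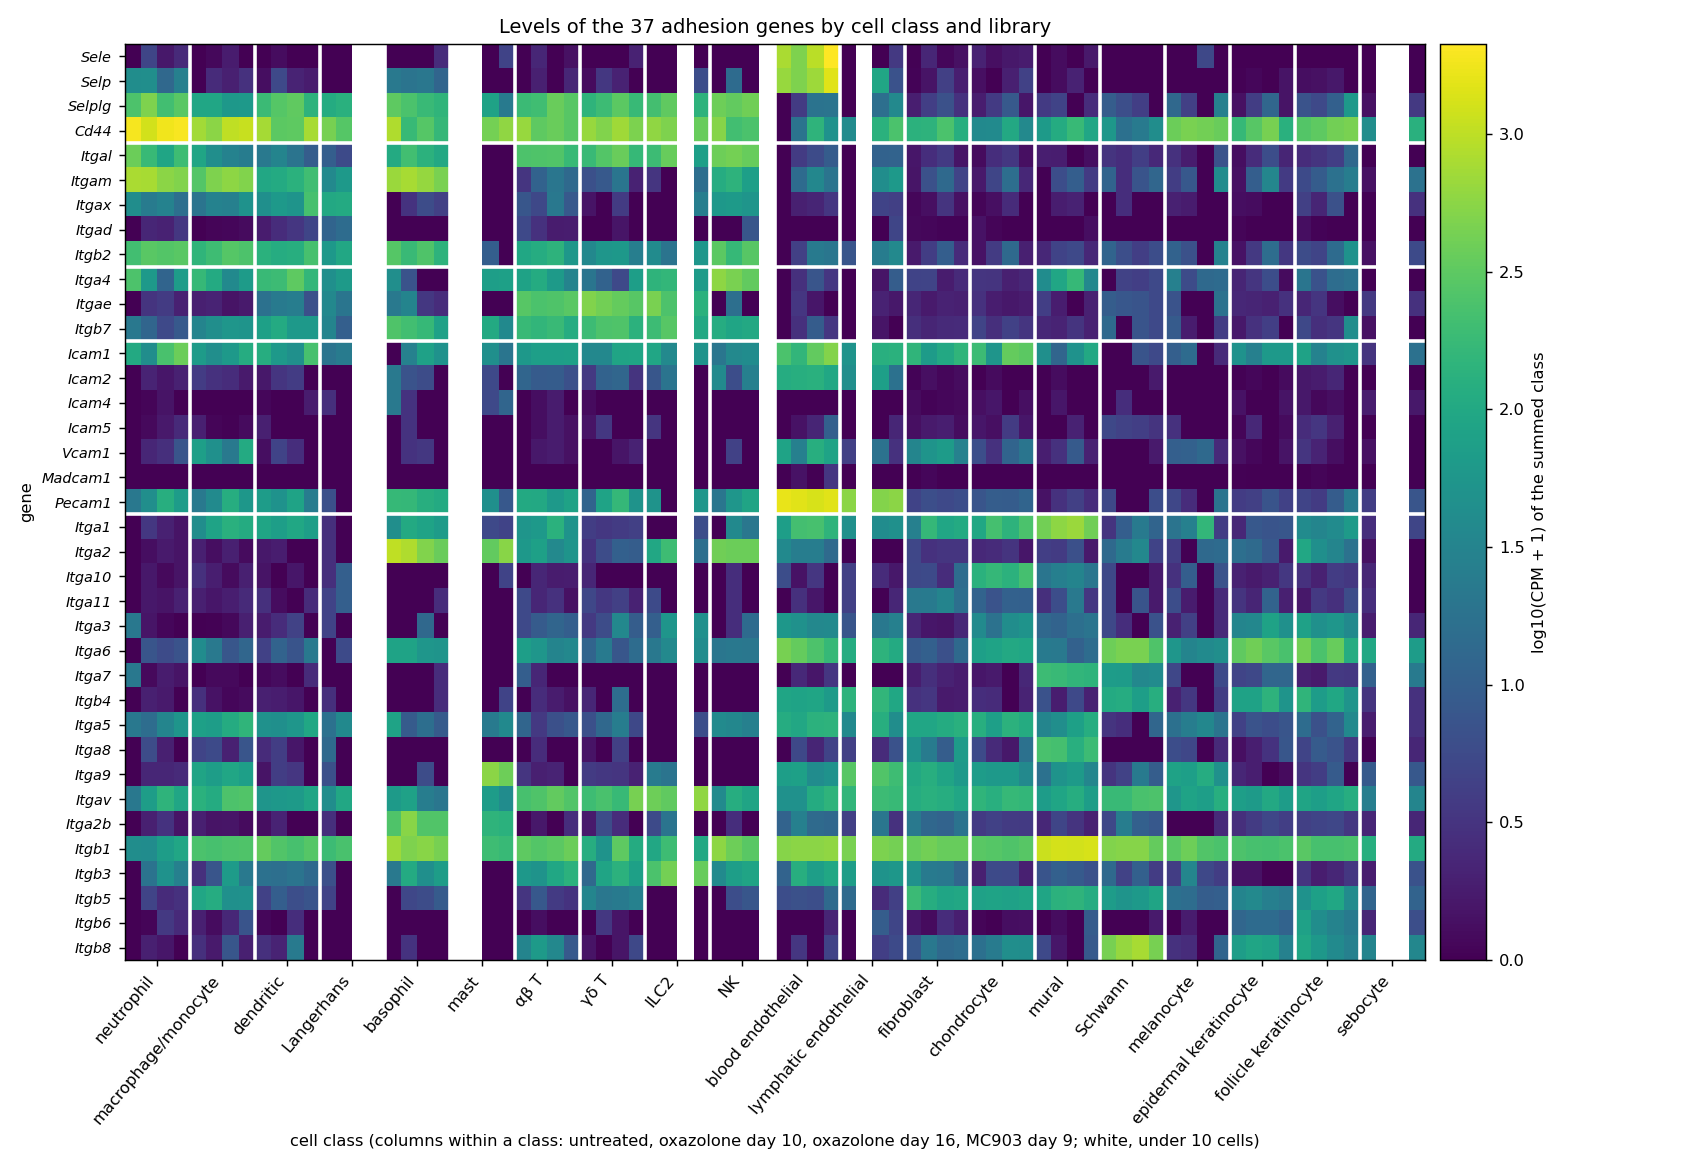
Heat map of log10(CPM + 1) for the 37 genes (rows, grouped by role) in the 20 cell classes (blocks of 4 columns in the order untreated, oxazolone day 10, oxazolone day 16 and MC903); white cells had under 10 cells. Sele is bright in blood endothelial-like cells alone, Itga10 in chondrocyte-like cells and Itga7 in mural cells, whereas Itgb1 and Cd44 are spread over most classes.

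E-selectin and P-selectin mRNA marked the blood endothelial-like cells of every library, and both were lowest there at oxazolone day 10 and highest in MC903 skin. These cells held 93.5 to 98.2% of all Sele UMIs in a library and 63.5 to 90.7% of all Selp UMIs. Leukocytes held 31.6% of the Selp UMIs at oxazolone day 10 and 23.3% at day 16. Neutrophil-like cells had Selp at 43.5 CPM at day 10 and 27.1 CPM in MC903 skin. Sele stood at 802 CPM in untreated skin, 478 at oxazolone day 10, 950.5 at day 16 and 2125 in MC903 skin. Their intervals were 680.1 to 939, 449 to 509, 904 to 998 and 2027 to 2226 CPM, so only MC903 lay above all the others and only oxazolone day 10 below them. Selp followed with 656, 485, 693 and 1489 CPM, and its untreated and day 16 intervals (546 to 781 and 654 to 734) overlapped. Untreated skin gave 19 such cells and MC903 skin 48, under the 50 needed for a ratio. Per cell the picture was narrower: thinned to 1000 UMIs, 33.3% of 15 untreated cells, 23.3% of 103, 37.2% of 86 and 38.3% of 47 had a Sele UMI, with exact binomial intervals that overlapped between all 4 libraries (unthinned, 42.1, 50.5, 45.6 and 45.8%). The share of cells with a Sele UMI could thus not be told apart between libraries at this depth.

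The ligands that arrest leukocytes were higher in blood endothelial-like cells at oxazolone day 16 than at day 10, the 1 comparison with at least 50 cells on both sides. Of 21 members compared, 7 were higher and 1 lower. Over all genes in this class 3.91% were higher and 6.58% lower. The 7 were Vcam1, Icam1, Cd44, Itgav and the leukocyte members Selplg, Itgam and Itgb2. Those leukocyte members had 6, 29 and 7 UMIs at day 10 and 29, 56 and 38 at day 16. The part of leukocyte RNA in them was not tested. Vcam1, the ligand of α4β1, stood at 83.3, 27.4, 121 and 84.1 CPM (log2 ratio 2.14, 95% interval 1.72 to 2.59 for day 16 over day 10). Icam1, the ligand of αLβ2 and αMβ2, stood at 245, 152, 339 and 518 CPM (log2 ratio 1.16, 95% interval 0.96 to 1.36). The Icam1 ratio was 0.91 without the 5 cells with most UMIs in each library. It ran from 0.85 to 1.32 over 10 alternative settings and was under 2-fold in 4. Day 10 was thus the lowest library for both genes, as it was for Sele and Selp. Beside the neutrophil markers in these cells, the neutrophil-like class itself held Vcam1 at 1.28 CPM at day 10 and 1.80 at day 16.

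Cd44, which binds hyaluronan and is itself an E-selectin ligand on leukocytes, had the largest log2 ratio among the members in these cells, with 0, 17.5, 144 and 48.1 CPM (log2 ratio 3.05, 95% interval 2.54 to 3.59). The neutrophil-like class held Cd44 at 1780 CPM at day 16, and the neutrophil markers in endothelial-like cells stood then at a median of 3.40% of their level in neutrophils. Itgav, the vitronectin receptor chain, was higher too (46.9, 47.2, 109 and 147 CPM, log2 ratio 1.21). Its ratio ran from 0.48 to 1.37 over 10 alternative settings and was under 2-fold in 2. Pecam1 and Icam2, which endothelium carries at rest, differed little between libraries: Pecam1 lay between 1332 and 1640 CPM and Icam2 between 96.1 and 128 CPM. The collagen receptor chain Itga1 stood at 72.9, 212, 229 and 143 CPM and the vitronectin receptor chain Itgb3 at 10.4, 119, 72.5 and 94.9 CPM, with untreated cells lowest for both; the laminin receptor chain Itga6 ran the other way, at 437, 349, 247 and 169 CPM. Madcam1, the gut addressin, was next to absent, with 1, 6, 1 and 2 UMIs in whole libraries.

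**Figure D2:**
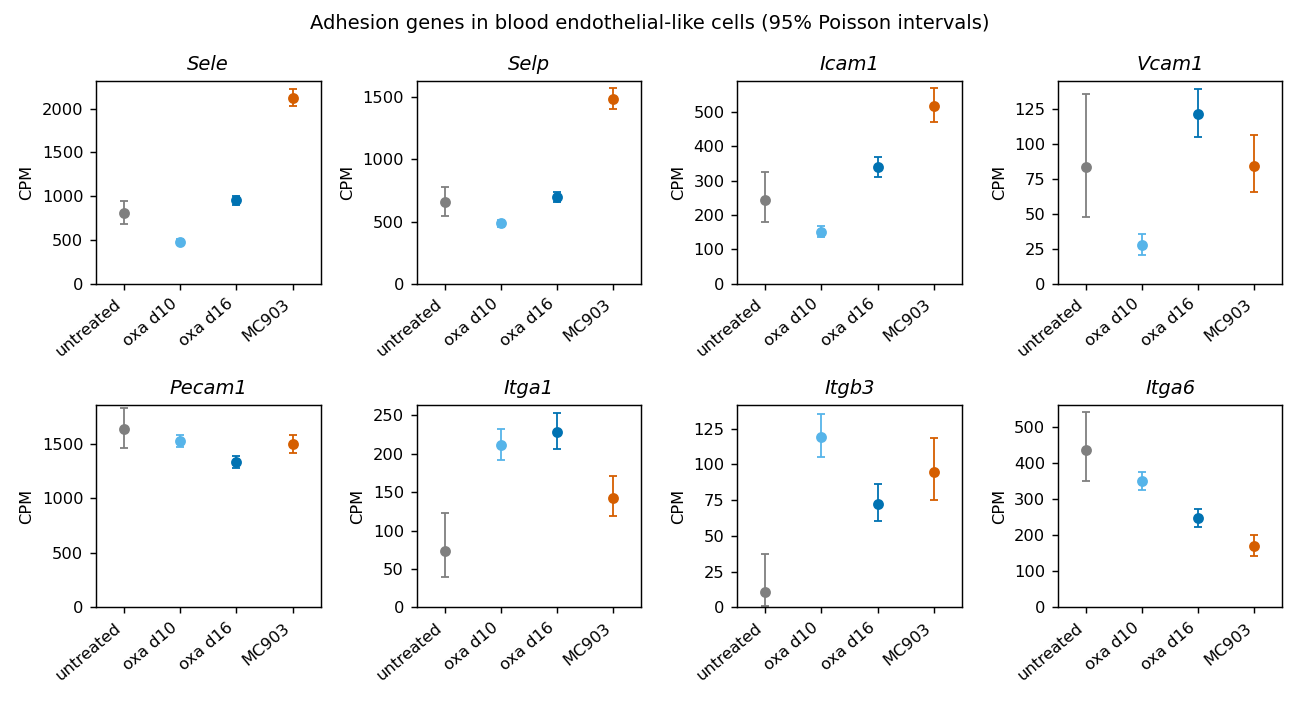
Levels in CPM (y axes, from 0) of 8 members in blood endothelial-like cells of the 4 libraries (x axes), with points for the summed class and bars for 95% Poisson intervals. Sele, Selp, Icam1 and Vcam1 are lowest at oxazolone day 10, Pecam1 lies between 1332 and 1640 CPM, and Itga1 and Itgb3 are lowest in untreated skin.

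The promoter windows of Icam1 and Sele, both lowest at oxazolone day 10 in these cells, are shown because each holds 1 match to the NF-κB-type motif GGNNATTCC, searched on both strands and chosen after the sequences were seen. The 250 bases before the RefSeq start are from assembly GRCm38.p6, plus strand, with the match in capitals.
Icam1, chr9:21015690-21015939: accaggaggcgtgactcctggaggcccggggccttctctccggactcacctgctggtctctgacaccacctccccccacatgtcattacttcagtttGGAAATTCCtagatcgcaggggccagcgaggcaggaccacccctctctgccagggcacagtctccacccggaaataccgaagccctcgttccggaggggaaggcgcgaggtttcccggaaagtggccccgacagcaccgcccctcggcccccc
Sele, chr1:164047984-164048233: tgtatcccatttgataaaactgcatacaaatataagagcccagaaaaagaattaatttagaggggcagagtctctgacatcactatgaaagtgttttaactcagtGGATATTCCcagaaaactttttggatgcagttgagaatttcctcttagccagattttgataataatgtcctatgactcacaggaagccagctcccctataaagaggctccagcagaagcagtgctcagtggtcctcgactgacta
Of 32851 such windows, 776 (2.36%) held the motif; 25 of the 37 members had a window and 3 of them held it, Itga5 being the other. A match of these letters is a description and not a binding site. In the GENCODE annotation of GRCm38, Sele (chromosome 1, 164048234 to 164057677) and Selp (164115264 to 164150026) lie on the plus strand, as do Icam1, Icam4 and Icam5 on chromosome 9 (21015985 to 21039036).

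Lymphatic endothelial-like cells numbered 38, 3, 53 and 60. They carried Pecam1 at 554 CPM in untreated skin, 506 at oxazolone day 16 and 568 in MC903 skin, and Itga9, an α chain that lymphatic valves need, at 289, 264 and 194 CPM. Selp stood there at 0, 91.3 and 5.89 CPM, so that oxazolone day 16 alone was well above 0, with an interval of 78.2 to 106 CPM.

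PSGL-1 (Selplg), the ligand by which neutrophils roll on P-selectin, was highest in the neutrophil-like cells whose leading genes included Ngp and Camp, which encode granule proteins made by young neutrophils, and low in the cells led by Il1a and Ccl3. The make-up of the class differed by library: the Ngp and Camp cluster held 1414 of 1792 cells at oxazolone day 10 but 53 of 4104 at day 16 and 21 of 284 in MC903 skin, while the Il1a and Ccl3 cluster held 175, 1886 and 84. In the Ngp and Camp cluster Selplg stood at 539, 612 and 533 CPM at oxazolone day 10, day 16 and in MC903 skin, and in the Il1a and Ccl3 cluster at 178, 144 and 167 CPM. Within either cluster these levels were close across the 3 libraries, while the clusters differed several-fold in each. Cells led by Slfn4 and Hcar2, 12 at day 10, 1066 at day 16 and 34 in MC903 skin, were lowest in the latter 2 libraries, with Selplg at 66.0 and 64.5 CPM.

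Over the whole class, Selplg was lower at oxazolone day 16 than at day 10 (log2 ratio -1.22, 95% interval -1.28 to -1.17). The log2 ratio was only -0.66 with TMM scaling, which raises every ratio of this class by 0.56, and 0.11 with the clusters weighted equally. Equal weighting left out the Slfn4 and Hcar2 cells, of which day 10 held under 20. Itga4, the α chain that pairs with β1 or β7, was lower (log2 ratio -2.46, 95% interval -2.66 to -2.26; -0.42 with clusters weighted equally), and Icam1 was higher (log2 ratio 2.53, 95% interval 2.38 to 2.68; 1.28 so weighted). Itga4 stood at 70.0, 52.1 and 88.9 CPM in the Ngp and Camp cluster and 9.83, 6.23 and 4.22 in the Il1a and Ccl3 cluster. Icam1 was ordered the opposite way, with 27.4, 19.5 and 124 CPM in the Ngp and Camp cluster and 135, 403 and 367 in the Il1a and Ccl3 cluster. Icam1 also differed between libraries within a cluster: the third large cluster, led by Retnlg with Ifitm6 and Fpr1, held 73.0, 149 and 474 CPM, with day 10 lowest and MC903 skin highest. The 16 neutrophil-like cells of untreated skin, 15 of them in the Ngp and Camp cluster, had Icam1 at 104 CPM.

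**Figure D3:**
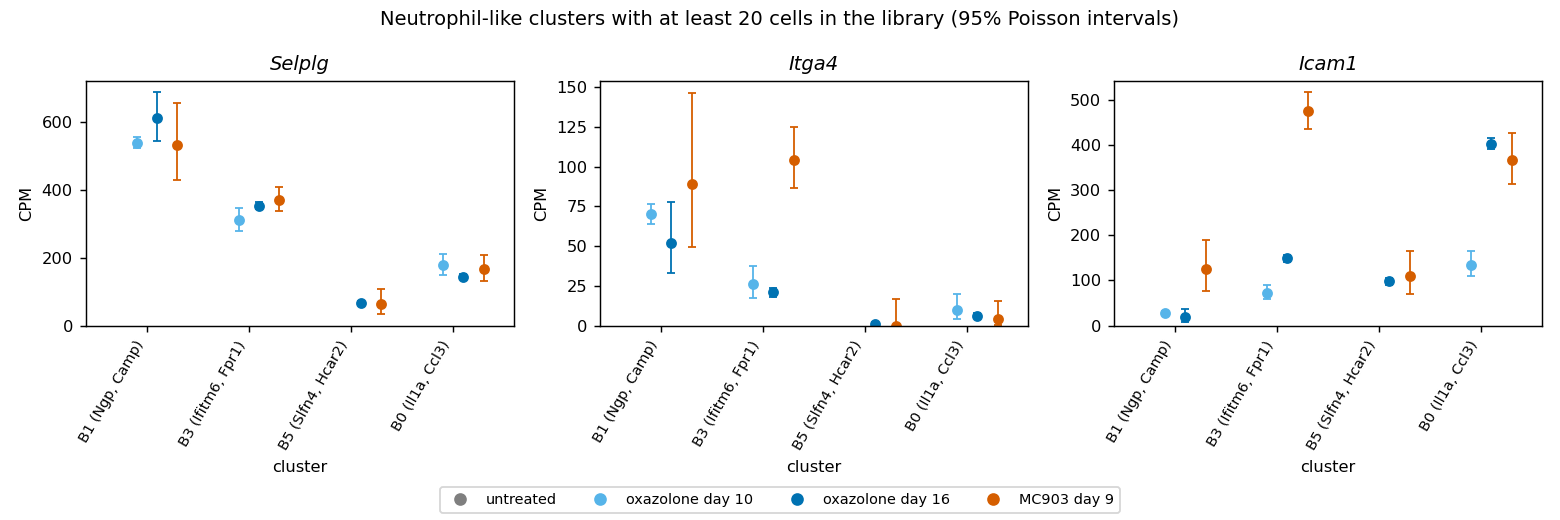
Levels in CPM (y axes, from 0) of Selplg, Itga4 and Icam1 in the 4 neutrophil-like clusters (x axes) by library (colours), shown where the library held at least 20 cells of the cluster, with 95% Poisson intervals. Selplg and Itga4 are higher in the Ngp and Camp cluster than in the Il1a and Ccl3 cluster in each library, and Icam1 runs the other way.

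The β2 integrins followed the myeloid and lymphoid classes. Itgb2, their shared β chain, stood in macrophage- and monocyte-like cells at 148, 194, 284 and 248 CPM, and Itgam, the α chain of Mac-1, at 276, 488, 581 and 499.7 CPM, a log2 ratio of 1.07 for oxazolone day 16 over untreated skin. Itgam overlaps the gene model Gm49368 on the same strand (chromosome 7, 128062640 to 128118491), so its counts could be shared. Itgal, the α chain of LFA-1, was lower in these cells in all 3 treated libraries, at 89.5, 43.4, 28.7 and 23.7 CPM (log2 ratio -1.92, 95% interval -2.34 to -1.49 in MC903 skin). Itgax, or CD11c, was highest in Langerhans- or dendritic-like cells in 3 libraries and in the 11 NK-like cells at oxazolone day 16. Itgad had 26 to 60 UMIs in a library and gave no ratio in these cells.

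Macrophage- and monocyte-like cells had more Itgb3 and less Itga4 in all 3 treated libraries. Itgb3, the β chain of the vitronectin receptor αvβ3, stood at 1.90, 6.65, 66.4 and 21.2 CPM, from 2 UMIs in untreated skin (log2 ratio 5.12, 95% interval 3.27 to 8.17 at oxazolone day 16). The cluster led by Arg1 and Ccl24, made up of 0, 104, 1164 and 80 cells, held Itgb3 at 54.8, 90.8 and 45.4 CPM, and the cluster with Cd163 and Folr2, found in all 4 libraries, at 0, 12.9, 18.9 and 2.60 CPM. Itga4 ran the other way over the class, at 168, 106, 36.7 and 65.9 CPM (log2 ratio -2.20, 95% interval -2.43 to -1.96 at day 16), and was 4.21, 6.74 and 9.64 CPM in the Arg1 cluster. With the clusters weighted equally, the day 16 log2 ratios were 1.93 for Itgb3 and -0.86 for Itga4, and the MC903 ratio of Itgb3 was -0.02 in place of 3.48. That weighting used only clusters with at least 20 cells in both libraries, so the Arg1 cluster was left out and not weighted. In the Cd163 and Folr2 cluster Itga4 stood at 113, 62.7, 77.5 and 62.3 CPM. Of all classes, NK-like cells had the highest Itga4 in untreated skin and at oxazolone days 10 and 16 (578, 456 and 335 CPM, from 11, 73 and 11 cells). Itga4 overlaps Cerkl on the opposite strand.

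Pecam1 in this class stood at 20.9, 38.5, 116 and 57.1 CPM (log2 ratio 2.47, 95% interval 1.87 to 3.15 at oxazolone day 16), while the laminin receptor chain Itga6 (log2 ratio -2.59, 95% interval -3.06 to -2.08) and Vcam1 (log2 ratio -1.82, 95% interval -2.16 to -1.46) were lower. With clusters weighted equally, and the Arg1 cluster again left out, the log2 ratios were 0.31 for Pecam1 and 0.03 for Vcam1. Cd44 stood at 728, 559, 1008 and 1132 CPM. At day 16, 5 of 26 members were higher and 5 lower in this class, against 7.84% and 23.2% over all genes.

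Dendritic-like cells had less Cd44 mRNA in oxazolone skin. Cd44 stood at 746, 310.0, 316 and 783 CPM (log2 ratio -1.27, 95% interval -1.36 to -1.17 at day 10), and Icam1 at 119, 61.9, 46.0 and 226 CPM. In the largest cluster Cd44 was 833, 279, 352 and 791 CPM, so that both oxazolone libraries lay below untreated and MC903 skin.

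γδ T-like cells formed a pair of clusters whose share differed by library. A cluster with the epidermal-type receptor gene Trdv4 held 622 of 684 cells in untreated skin, 24 of 57, 2 of 167 and 69 of 104, and a cluster led by Cd163l1, Il17a and Il23r held the rest, 62, 33, 165 and 35 cells. Within this class Itgb3 was higher in the Il17a cells, with 92.3, 169.5, 139 and 182 CPM there. The Trdv4 cells of untreated, oxazolone day 10 and MC903 skin had 3.92, 9.68 and 25.8 CPM. Of all classes, ILC2-like cells had the highest Itgb3 in those same libraries, at 243, 429 and 352 CPM. The whole-class ratios of Itgb3 (2.84, 3.49 and 2.67 on the log2 scale) and of Pecam1 (2.96, 3.90 and 2.19) accompany that shift. With the clusters weighted equally that of Itgb3 was 0.90 at day 10. At day 16 it was 0.59 in the Il17a cluster alone, since the Trdv4 cluster held 2 cells and was left out. Over all alternative settings, equal weighting among them, the Itgb3 ratio in MC903 skin stayed between 1.12 and 2.93. Pecam1 ratios ran from 1.47 to 3.13 at day 10, 1.54 to 4.36 at day 16 and 0.95 to 2.31 in MC903 skin. Within the Il17a cells Itgb1, the fibronectin and VCAM-1 receptor β chain, was highest at oxazolone day 16, at 100.4, 56.5, 317 and 127 CPM. Itgae, the αE chain that binds E-cadherin on keratinocytes, stood in the class at 489.8, 411, 344 and 294 CPM; it overlaps Haspin on the opposite strand. Itga4 had a log2 ratio to untreated skin of 1.99 in MC903 skin and -2.06 at day 16 (0.48 in MC903 skin with no doublets removed), and in the Trdv4 cells it stood at 18.8, 0 and 109.7 CPM.

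αβ T-like cells had less Cd44 mRNA in the treated libraries, at 642, 315, 370.5 and 292 CPM (log2 ratio -1.03, 95% interval -1.22 to -0.83 at oxazolone day 10 and -1.14 in MC903 skin). The day 10 ratio ran from -1.29 to -0.86 over 9 alternative settings and was under 2-fold in 5. The largest cluster held 683, 339.6, 393 and 310.2 CPM, and the cluster with Foxp3 and Il2ra, which mark regulatory T cells, 566, 289 and 328 CPM in untreated skin and at oxazolone days 10 and 16. Itga1, which tissue-resident T cells carry, stood at 53.4, 61.5, 131 and 50.6 CPM and Itga4 at 82.2, 109, 64.1 and 29.5 CPM. Itgb8, the chain with which regulatory T cells activate TGF-β, stood at 31.1, 63.8, 35.0 and 7.60 CPM, from 14 UMIs in untreated skin and 18 in MC903 skin.

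Basophil-like cells, absent from the ratios with untreated skin because it held 13 of them, carried the α2 and αIIb chains. Itga2, the collagen receptor chain used to stain mouse basophils as CD49b, stood at 1024 CPM in untreated skin, 840.2 at oxazolone day 10, 503 at day 16 and 368 in MC903 skin, against 536 CPM in the 30 mast-like cells of MC903 skin. Itga2b, known as CD41 on platelets, stood at 256, 546, 264 and 261 CPM, with day 10 alone apart from the others (interval 483 to 615 CPM). In MC903 skin, 5 of 15 members were lower and 0 higher than at oxazolone day 10, with 13.7% and 7.23% over all genes; Itgb7 (log2 ratio -1.39, 95% interval -1.91 to -0.89) was among the lower. Itga9 marked the mast-like cells, at 555 CPM in the 18 cells of day 16 and 389 CPM in MC903 skin.

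Icam1 was lower at oxazolone day 10 than in untreated skin in stromal and follicular cells, and it was higher again at oxazolone day 16 and in MC903 skin in several of them. In chondrocyte-like cells of the ear it stood at 188 CPM in untreated skin, 53.0 at oxazolone day 10, 346 at day 16 and 303 in MC903 skin, so that day 10 was 3.54-fold below untreated skin (log2 ratio -1.82, 95% interval -1.98 to -1.67). Mural cells, the pericytes and smooth muscle of vessels, had 44.6, 11.1, 49.3 and 99.9 CPM (log2 ratio -2.01, 95% interval -2.58 to -1.46), and fibroblast-like cells 149.9, 65.1, 99.4 and 148 CPM (log2 ratio -1.20, 95% interval -1.30 to -1.10). Follicle keratinocyte-like cells had 80.5, 28.7, 47.8 and 53.9 CPM (log2 ratio -1.49, 95% interval -1.69 to -1.27). That follicle ratio was -0.96 without the 5 cells with most UMIs in each library. It ran from -1.58 to -0.78 over 9 alternative settings and was under 2-fold in 2. Mural cells of MC903 skin lay above untreated skin (log2 ratio 1.16, 95% interval 0.83 to 1.51; 0.78 with no doublets removed).

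Day 10 was thus the lowest of the 4 libraries in these 4 classes. Against day 10, Icam1 in chondrocyte-like cells lay 6.53-fold higher at day 16 and 5.71-fold higher in MC903 skin, and in mural cells 9.02-fold higher in MC903 skin. Fibroblast-like cells differed less, by 1.53-fold at day 16 and 2.27-fold in MC903 skin, and follicle keratinocyte-like cells by 1.66-fold at day 16. The 10 alternative settings kept the day 10 difference at 2-fold or more in fibroblast- (-1.28 to -1.12), chondrocyte- (-2.00 to -1.57) and mural-like cells (-2.22 to -1.88, all log2 ratios). T-like cells departed from this order. αβ T-like cells had 57.8, 74.5, 73.9 and 76.4 CPM and γδ T-like cells 34.5, 34.9, 86.5 and 89.6 CPM, with day 10 not below untreated skin. Epidermal keratinocyte-like cells had 48.1, 27.2, 61.3 and 63.1 CPM, of which day 16 rests on 15 cells.

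**Figure D4:**
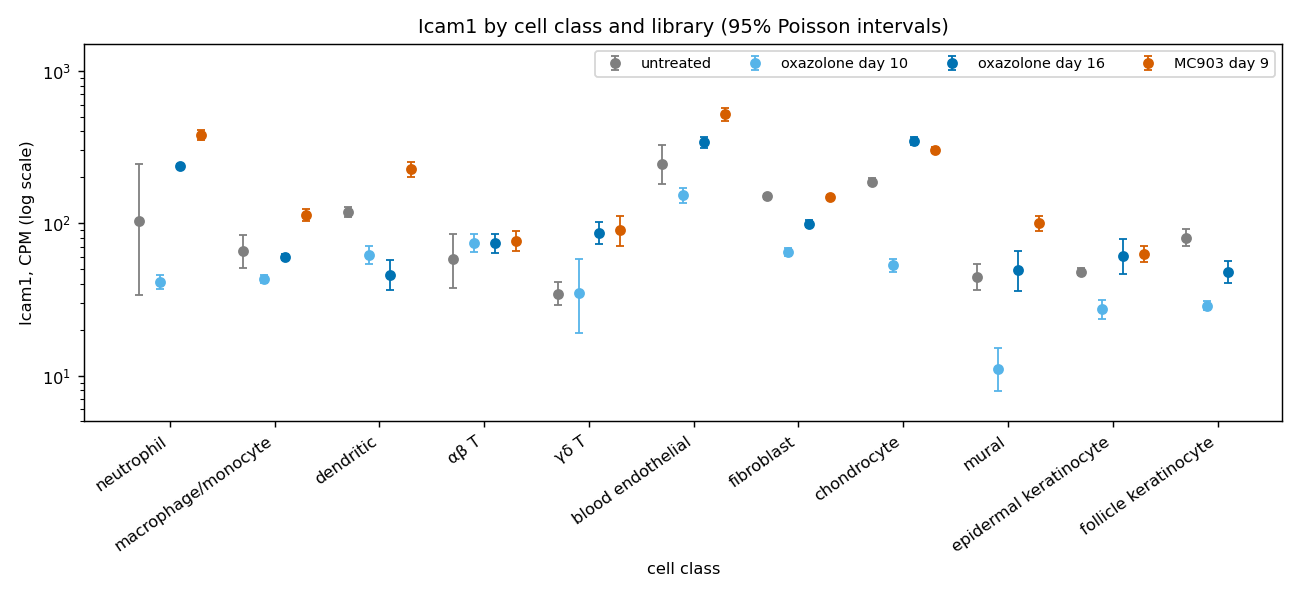
Icam1 in CPM (y axis, log scale) in 11 cell classes (x axis) by library (colours), for classes with at least 15 cells in the library, with 95% Poisson intervals. Oxazolone day 10 is the lowest library in the blood endothelial-, fibroblast-, chondrocyte-, mural-, follicle- and epidermal keratinocyte-like classes, but not in αβ T-like cells.

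A list of 14 NF-κB target genes without Icam1, such as Nfkbia, Tnfaip3 and Cxcl1, is set beside it, since Icam1 is a textbook target of that factor. At oxazolone day 10 the list was mixed: 2 of 11 genes were higher and 3 lower in chondrocyte-like cells (over all genes, 3.78% and 4.73%). The counts were 1 and 2 of 12 in mural cells (over all genes, 4.02% and 4.16%). In fibroblast-like cells they were 5 and 1 of 14 (over all genes, 11.7% and 5.39%). Follicle keratinocyte-like cells, where Icam1 was lower, had 4 and 2 of 13 (over all genes, 11.2% and 9.69%). For day 16 over day 10 it ran 1 way, with 11 of 14 higher in chondrocyte-like cells, 10 of 13 in blood endothelial-like cells and 9 of 14 in neutrophil-like cells, and 0 lower in each (over all genes, 4.09, 3.91 and 9.51% higher). For MC903 over day 10, 12 of 13 were higher in neutrophil-like cells and 8 of 13 in mural cells, with 0 lower (over all genes, 7.50% and 4.92% higher). In fibroblast-like cells of that comparison 4 of 14 were higher and 2 lower (over all genes, 9.37% and 14.7%), with a median log2 ratio of -0.34 beside 1.18 for Icam1. In epidermal keratinocyte-like cells 2 of 12 were higher and 1 lower (over all genes, 5.42% and 13.2%). Median log2 ratios of the list were -0.82 in chondrocyte-like cells at day 10 over untreated skin and 2.26 at day 16 over day 10.

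Vcam1 outside endothelium differed between libraries in a less regular way. Fibroblast-like cells held 45.3 to 64.5% of its UMIs in 3 libraries and stood at 31.4, 51.4, 65.5 and 28.3 CPM (log2 ratio 1.06, 95% interval 0.92 to 1.20 at oxazolone day 16; 0.52 to 1.23 over 10 alternative settings, 3 of them under 2-fold). In chondrocyte-like cells it was 5.28, 1.95, 11 and 18.6 CPM, from 45, 16, 35 and 97 UMIs; the higher values at day 16 and in MC903 skin rested on few cells, and without the 5 cells with most UMIs of the class in each library the log2 ratios to untreated skin were -0.65 and -0.02. Icam4 had 17 to 30 UMIs in a library and Icam5 33 to 98, too few for a description by class.

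In fibroblast-like cells the α1 chain of the collagen receptor was higher in every treated library and the vitronectin receptor β3 chain lower. Itga1 stood at 27.2 CPM in untreated skin, 165 at oxazolone day 10, 93.1 at day 16 and 108 in MC903 skin (log2 ratios 2.60, 1.77 and 1.99), so that the treated libraries lay 3.42- to 6.07-fold above untreated skin. Itgb3 stood at 46.9, 22.8, 20.4 and 11.4 CPM (log2 ratios -1.04, -1.20 and -2.04). Itga1 overlaps Pelo and Gm49395 on the same strand (chromosome 13, 114953096 to 115101964), so that its counts could be shared with them.

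Clusters of this class with untreated cells were compared one by one. Itga1 stood at 28.3, 72.7, 38.4 and 63.7 CPM in the cluster led by Coch, at 145, 295, 278 and 352 in the one led by Angptl7 and at 23.9, 42.2, 51.1 and 39.1 in the one led by Cxcl13 and Inmt. Itgb3 stood at 90.7, 65.0, 39.7 and 17.9 CPM in the Cxcl13 and Inmt cluster and 39.0, 30.7, 34.2 and 10.3 in the Coch cluster, where only the MC903 interval (8.67 to 12.2 CPM) lay far below that of untreated skin (35.0 to 43.4 CPM). In the Angptl7 cluster Itgb3 was 0.889, 5.13, 17.8 and 1.01 CPM, so that untreated cells, lowest for Itga1 in all 3 clusters, were highest for Itgb3 in the other two only. Equal weighting of clusters used only those with at least 20 cells in both libraries. Among those left out were the clusters led by Efemp1, with Cxcl5 and Saa3, and with Rspo2 and Hhip. So weighted, log2 ratios to untreated skin at day 10, day 16 and in MC903 skin were 0.98, 0.90 and 1.36 for Itga1 and -0.43, -0.51 and -1.87 for Itgb3. The oxazolone values of both genes were thus under 2-fold, whereas the MC903 ratio of Itgb3 lay between -2.14 and -1.86 over 10 alternative settings. The make-up of the class differed: a cluster led by Efemp1 held 652 cells in untreated skin and 2, 0 and 1 in the others, a cluster with Cxcl5 and Saa3 held 1 against 177, 231 and 73, and a cluster with Rspo2 and Hhip held 175 at day 10. In the Cxcl5 and Saa3 cells Itga1 was 234, 91.3 and 60.8 CPM and Itgb3 23.8, 15.7 and 13.1 CPM at oxazolone day 10, day 16 and in MC903 skin.

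Itga8, the α chain that binds nephronectin, was lower in fibroblast-like cells of both oxazolone libraries but not of MC903 skin, at 47.0, 23.1, 8.71 and 66.3 CPM (log2 ratio -2.43, 95% interval -2.71 to -2.16 at day 16). The Coch cluster, where it was highest, held 111, 44.0, 15.6 and 109 CPM. Itga10, the cartilage collagen receptor chain, was low in this class, at 4.20, 4.53, 1.68 and 13.8 CPM (log2 ratio 1.72, 95% interval 1.42 to 2.03 in MC903 skin, but 0.17 with coarser clusters). Itgb5 stood at 186, 118, 89.5 and 97.8 CPM (log2 ratio -1.05, 95% interval -1.15 to -0.96 at day 16; -1.12 to -0.51 over 10 alternative settings, 3 of them under 2-fold). Itga11, the fibroblast collagen receptor chain, had 66.1 to 86.0% of its UMIs in fibroblast-like cells. Over the class, 7 of 28 members were higher and 5 lower at day 10 (all genes, 11.7% and 5.39%), 9 and 8 of 31 at day 16 (9.79% and 12.2%), and 7 and 3 of 30 in MC903 skin (10.6% and 9.09%).

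Chondrocyte-like cells held 65.1 to 84.5% of all Itga10 UMIs, at 133, 161, 138 and 224 CPM; the gene overlaps the model Gm42957 on the same strand. Itga1 was higher there at oxazolone day 10 and in MC903 skin (96.1, 224, 142 and 239 CPM; log2 ratios 1.22 and 1.32). Cd44 was highest at day 16, at 36.6, 38.1, 101 and 35.6 CPM, where the neutrophil markers in these cells summed to 4019 CPM against 644 in untreated skin, with S100a9, Cxcr2 and Retnlg at 0 in the latter. Itga8 was the member that differed most in direction between treatments, at 4.57, 1.46, 0.628 and 16.7 CPM, but from only 39, 12, 2 and 87 UMIs, and the log2 ratio of 1.87 in MC903 skin was -1.16 with classes from counts of detected markers.

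Mural cells carried the highest Itgb1 in each library, at 1138, 1315, 1257 and 1345 CPM, and the highest Itga7 and Itga8, the chains that bind laminin and nephronectin around smooth muscle. Itga7 stood at 190.0, 182, 152 and 147 CPM (it overlaps Mettl7b on the opposite strand) and Itga8 at 236, 219.6, 125 and 189 CPM, of which day 16 rests on 41 cells. Other members higher than in untreated skin were the fibronectin receptor chain Itga5 in MC903 skin (32.0, 42.9, 77.8 and 117 CPM; log2 ratio 1.87, 95% interval 1.50 to 2.26), Itga9 at oxazolone day 10 (log2 ratio 1.63, 95% interval 1.10 to 2.19) and Itga4 at day 10 (log2 ratio 1.22, 95% interval 0.88 to 1.58). The Itga5 difference ran from 1.59 to 1.97 on the log2 scale under the 10 alternative settings.

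Schwann-like cells carried Itgb8, the chain that activates latent TGF-β, at 439, 634, 781 and 442 CPM, the highest of any class in every library. Of 8 members compared in them at oxazolone day 10, 0 were higher and 1 lower (all genes, 4.29% and 4.27%), the last being Cd44 with 9 against 26 UMIs, and of 8 in MC903 skin none was past 2-fold (all genes, 6.42% and 8.76%). In melanocyte-like cells Itgb3 stood at 3.03, 33.1, 4.23 and 3.05 CPM, from 3 UMIs in untreated skin (log2 ratio 3.45, 95% interval 1.80 to 5.78 at day 10; 0.78 without the 5 cells with most UMIs in each library), and Itga4 at 27.3, 4.84, 12.7 and 13.7 CPM.

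Keratinocyte-like cells carried the hemidesmosome pair Itga6 and Itgb4 and the laminin and collagen receptor chains Itga3 and Itga2, though not alone. Itga6 was highest in blood endothelial-like cells of untreated skin (437 CPM) and in Schwann-like cells of the treated libraries (458, 451 and 253.5 CPM). Itgb4 was highest in follicle keratinocyte-like cells in untreated skin only. Schwann-like cells led at oxazolone day 10 (114.5 CPM) and in MC903 skin (122.8 CPM), and lymphatic endothelial-like cells at day 16 (152.5 CPM). In epidermal keratinocyte-like cells Itga6 stood at 324, 408, 300.4 and 232 CPM and Itgb4 at 82.1, 81.6, 142 and 51.6 CPM, day 16 resting on 15 cells. Itga2 was lower in MC903 skin, at 0.733 against 15.2 CPM (log2 ratio -4.38, 95% interval -6.66 to -2.82; 3 UMIs against 382). The clusters were unequally filled. The cluster where Itga2 was high (34.2 CPM in untreated skin and 35.7 at oxazolone day 10) held 705 untreated cells but 4 MC903 cells, and in the cluster that held 687 and 93 such cells Itga2 was 0.770 and 0.527 CPM. The alternative with clusters weighted equally kept only clusters with at least 20 cells in both libraries, here that cluster alone. Its log2 ratio of -0.07 also rests on a floor of 3 UMIs, which raised the MC903 level to 0.733 CPM.

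Itgb8 was lower in epidermal keratinocyte-like cells of MC903 skin (69.2, 89.4, 79.0 and 28.1 CPM; log2 ratio -1.30, 95% interval -1.58 to -1.03), and inside the same cluster it stood at 69.9 and 29.2 CPM. Itga1, low in this class, was 1.32, 7.34, 6.24 and 6.84 CPM, from 33, 48 and 28 UMIs in the libraries other than day 16. In that cluster Itga3 was 15.9 CPM in untreated and 46.6 CPM in MC903 skin.

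Follicle keratinocyte-like cells had lower levels of several matrix receptors at oxazolone day 10. There, 8 of 30 members were lower and 2 higher (all genes, 9.69% and 11.2%). At day 16, 3 of 20 were lower and 4 higher than in untreated skin (all genes, 9.97% and 8.57%), with a median log2 ratio of -0.09. Among those lower at day 10 were Itgb4 (150.0, 68.1, 96.2 and 51.5 CPM), Itga2 (98.9, 44.4, 31.2 and 17.1 CPM) and Itga4 (18.8, 5.91, 14.3 and 17.1 CPM); MC903 skin held 11 such cells. Itgb6, the epithelial chain that activates TGF-β, stood at 78.6, 41.9, 29.6 and 22.1 CPM (log2 ratio -1.41, 95% interval -1.77 to -1.06 at day 16). The clusters differed here too: 319 of 336 untreated cells lay in 1 cluster that held 504 of 1209 at day 10, where the others lay in clusters of 460 and 245 cells that had 2 and 15 untreated cells.

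The remaining chains were spread over several classes. Itgav, the α chain shared by the vitronectin and TGF-β-binding integrins, was highest in ILC2-like cells in 3 libraries (of 68, 13 and 20 cells) and in αβ T-like cells at oxazolone day 16; the latter class held 227, 259, 334 and 268 CPM. In macrophage- and monocyte-like cells Itgav was 134, 111, 252 and 266 CPM, higher at day 16 and in MC903 skin than in the other libraries. Itgb7, which pairs with α4 and αE, stood in γδ T-like cells at 191, 249, 256 and 138 CPM, with MC903 skin lowest. Itga5, the fibronectin receptor chain, was 119, 74.3, 137 and 112 CPM in chondrocyte-like and 76.1, 69.1, 111 and 148 CPM in macrophage- and monocyte-like cells, and the class with the highest level differed between libraries.

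Itga11 in fibroblast-like cells stood at 21.2, 22.5, 30.4 and 15.2 CPM, with MC903 skin lowest. Itga3, the laminin receptor chain of epithelia, was 78.2, 46.5, 55.4 and 36.8 CPM in follicle keratinocyte-like cells, the MC903 value resting on 11 cells. Itgax in dendritic-like cells was 43.9, 60.3, 52.4 and 226 CPM, from 39 cells in MC903 skin, where it was highest. Icam4 and Icam5 were rare, with 17 to 30 UMIs of Icam4 and 33 to 98 of Icam5 in a whole library, too few for a description by class.

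Leukocyte members were also counted in cells that are not leukocytes, at 0 to 12.6% of their level in the neutrophil-like cells of the same library for Selplg, Itgal, Itgam and Itgb2. The highest of these shares was that of Itgam in lymphatic endothelial-like cells of MC903 skin, where Itgb2 was at 11.7% and the 6 neutrophil markers at a median of 9.85% of theirs. In fibroblast-like cells at oxazolone day 16, Selplg was 2.73% of its neutrophil level, Itgam 2.32% and Itgb2 3.25%. The 6 markers stood at a median of 1.48% (range 0.825 to 2.10%), so that these members lay above the range of the markers. Macrophage- and monocyte-like cells of that library held 51.5% of all Itgam and 49.5% of all Itgb2 UMIs. Markers of neutrophils alone therefore cannot say where the excess came from. The fibroblast ratios of Itgam were 3.38, 4.58 and 2.80 on the log2 scale at oxazolone day 10, day 16 and in MC903 skin, from 14 untreated UMIs. The 6 markers stood there at medians of 0.280, 1.48 and 0.296% of their neutrophil level. With classes from counts of detected markers the MC903 ratio of Itgam was -1.06. In melanocyte-like cells of MC903 skin, Itgam was at 8.34% of the neutrophil level, with the markers at a median of 8.37%. Selp in fibroblast-like cells, 0.0771, 0.510, 3.22 and 0.925 CPM, came from 44 UMIs at day 16 and 2 in untreated skin (log2 ratio 5.38, 95% interval 3.45 to 8.47). The part of neutrophil or macrophage RNA in these values was not tested.

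Integrin chains that pair were counted in the same cells. Itgam and Itgb2 were both seen in 41.2, 74.7, 85.3 and 88.7% of macrophage- and monocyte-like cells, and the products of the single shares were 38.6, 71.5, 82.7 and 86.3%. Median depth in these cells ran from 8086 UMIs in untreated skin to 22370 in MC903 skin, and these shares are not corrected for depth. Itga6 and Itgb4 were both seen in 57.9, 66.8 and 68.0% of epidermal keratinocyte-like cells in untreated, oxazolone day 10 and MC903 skin (products 55.6, 62.2 and 66.0%). Itga10 and Itgb1 were both seen in 58.7, 82.7, 85.8 and 80.2% of chondrocyte-like cells (products 56.2, 80.3, 85.5 and 78.3%). The shares of each pair lay close to these products.

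Genes that serve the members were followed as lists. Of the selectin ligand enzymes, 4 of 8 were lower and 0 higher in neutrophil-like cells at oxazolone day 16 than at day 10 (all genes in this class, 33.4% lower), with the sialyltransferases St3gal4 and St3gal6 at -1.92 and -1.25 and Gcnt1, which builds the branched core of the sugar chain, at -1.49 (log2 ratios). With TMM scaling 1 of the 8 was lower, near the share of all genes so scaled (14.7% lower). St3gal4 was then at -1.36, St3gal6 at -0.68 and Gcnt1 at -0.92. The class lay in different clusters at the 2 days, and in the Ngp and Camp cluster St3gal4 went from 418 to 291 CPM, St3gal6 from 177 to 146 and Gcnt1 from 176 to 71.7. Of the integrin-activating genes, such as talin and kindlin, 2 of 13 were lower in those cells and 0 higher. In blood endothelial-like cells 4 of 14 integrin-activating genes and 2 of 11 junction genes were higher and 0 lower, again at day 16 over day 10 (all genes, 3.91% higher and 6.58% lower). In γδ T-like cells 6 of 14 integrin-activating genes were lower and 1 higher at day 16 than in untreated skin (all genes, 28.9% lower). With TMM scaling 3 of these 14 were lower and 1 higher, and the share of all genes so scaled was not computed for this class. The Trdv4 cluster held 622 of the 684 untreated cells of the class and 2 of the 167 at day 16.

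Matrix ligands of the integrins were higher in macrophage- and monocyte-like cells at day 16, with 6 of 8 higher and 1 lower than in untreated skin (all genes, 7.84% higher). Spp1, or osteopontin, which αvβ3 binds, had a log2 ratio of 7.13, from 15 UMIs in untreated skin, and Fn1, or fibronectin, 2.33. Cdh1, or E-cadherin, the ligand of αE, was at 6.10 from 2 UMIs, and Mfge8, which bridges αv integrins to dying cells, was lower, at -3.49. In follicle keratinocyte-like cells 5 of 15 matrix ligands were lower and 1 higher at day 10 (all genes, 9.69% and 11.2%), beside the lower receptor chains described above.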

How the data were processed

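The deposited files hold raw UMI counts per gene and barcode that the authors made with Cell Ranger; per the file headers, version 8.0.0 made the MC903 and oxazolone day 16 matrices and 7.2.0 the remaining pair, whereas the submitters' processing notes give Cell Ranger 8.0 and mm10. Neither the annotation nor the treatment of intronic reads is stated in the sources read. The change of version runs between libraries of different groups, and its effect on the ratios was not tested. Genes that overlap another gene were counted as deposited.

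Kept barcodes had 300 genes or more and no more than 15% of UMIs from mitochondrial genes, and those with the highest scores against simulated doublets were removed at 0.8% per 1000 barcodes (129 to 578 per library). The kept libraries held 3714 to 7723 cells at a median of 8806 to 14329.5 UMIs. Counts scaled to 10000 per cell were log-transformed, 2000 variable genes without the 38 members were reduced to 30 principal components, and cells were clustered by Leiden at resolution 1 on 15 neighbours, leukocytes again by themselves. Of 44 clusters, 3 stayed unnamed and the others were given 1 of 20 class names from 33 marker sets, where at least 3 markers were detected.

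UMIs were summed over class and library and divided by the class total to give CPM. A ratio was formed with at least 50 cells in both libraries and 30 UMIs over both, and the same rule over all genes gave the background shares. Intervals are at 95% (exact Poisson for levels, conditional binomial for ratios), cover counting error only, and bounds against a count of 0 use 3 UMIs in its place. With 1 library of pooled mice a group, no test was run and no batch could be separated from treatment. The call rule was tested on simulated data.

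Of the 38 genes, 1 is not reported here. The members and lists were chosen with earlier results of these data known. Each member was to be named with its highest class and levels in all libraries, and in a class and comparison the 6 with the largest ratio; ratios beyond those 6 were chosen after their values were seen. Alternatives covered resolution, doublets, the mitochondrial limit, class assignment, per-cell means, scaling, UMI minimum, free RNA and the 5 cells with most UMIs. Leaving out leukocyte genes elsewhere and weighting clusters equally were added after seeing the data. Equal weighting used only clusters with at least 20 cells in both libraries and left out the others. It also raised levels under 3 UMIs of the class total to that floor. Promoters came from RefSeq tables of GRCm38.p6. Python 3.11.15, numpy 2.4.6, scipy 1.17.1, scikit-learn 1.9.0, igraph 0.11.9, leidenalg 0.10.2, matplotlib 3.10.9, R 4.3.3 and edgeR 4.0.16 (TMM factors only) were used.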

Additional observations from a re-analysis of the deposited data

Results flagged for a closer look

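A pair of a member and a class was picked out where the log2 ratio to untreated skin was at least 2-fold up in one treated library and at least 2-fold down in another. Those differences between treatments were not tested, and the comparisons share the untreated library. In chondrocyte-like cells Itga8 was at 1.87 in MC903 skin and at -1.65 and -2.86 at oxazolone days 10 and 16. Vcam1 in the same class was at -1.44 at day 10, 1.06 at day 16 and 1.82 in MC903 skin. In γδ T-like cells Itga4 was at 1.99 in MC903 skin and -2.06 at day 16, and Itgb1 at -1.22 at day 10 and 1.43 at day 16. Itga10 in fibroblast-like cells was at 1.72 in MC903 skin and -1.32 at day 16. Icam1 in mural-like cells was at -2.01 at day 10 and 1.16 in MC903 skin. Itgb8 in αβ T-like cells was at 1.03 at day 10 and -2.03 in MC903 skin.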

How the results depend on the processing

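The alternatives left the counts of higher and lower member and class pairs within 1.5 times the reported values except as follows. Higher pairs at oxazolone day 10 numbered 10 with at least 100 UMIs, 55 with at least 10 UMIs and 17 with free RNA taken off, and lower pairs 16 and 38 with the 100 and 10 UMI minimums. At day 16 higher pairs numbered 26 with classes from counts of detected markers, 20 with at least 100 UMIs and 24 without the 5 cells with most UMIs, and lower pairs 33 with no doublets removed and 12 with marker-count classes. In MC903 skin higher pairs numbered 21 with marker-count classes, 21 with at least 100 UMIs and 51 with at least 10, and lower pairs 29 with no doublets removed, 9 with at least 100 UMIs and 31 with at least 10. A minimum of 100 UMIs tests fewer genes and one of 10 more; for the other settings the cause was not tested.

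Of 119 named ratios, none turned sign with either other resolution, the 10% mitochondrial limit, per-cell means, TMM scaling or free RNA taken off. TMM shifted log2 ratios of a class by up to 0.58 (basophil-like cells, day 16 over day 10), 0.56 in neutrophil-like cells of that comparison and 0.13 at most in MC903 over untreated skin. Log2 ratios that turned sign with marker-count classes were, in MC903 skin, Itgb8 in αβ T-like (0.08), Itga8 in chondrocyte- (-1.16) and epidermal keratinocyte-like (-1.68) and Itgam in fibroblast-like (-1.06) cells, and at day 16 Itgb8 in chondrocyte-like cells (-0.27). Without the 5 cells with most UMIs, Vcam1 in chondrocyte-like cells was at -0.02 in MC903 skin and -0.65 at day 16, and Itgav in melanocyte-like cells at -0.43 in MC903 skin. With no doublets removed, Cd44 in Schwann-like cells was at 0.65 at day 10. With clusters weighted equally, 7 of 119 turned sign and 44 fell under 2-fold: in macrophage- and monocyte-like cells Itgb3 (-0.02) and Pecam1 (-0.99) in MC903 skin and Itga1 (-0.04) and Vcam1 (0.03) at day 16, and in neutrophil-like cells, day 16 over day 10, Itgav (-0.42), Pecam1 (-0.24) and Selplg (0.11). Equal weighting left out clusters with under 20 cells in either library, so part of these changes goes with clusters dropped. The cause of the changes was not tested.

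No paired analysis was possible because the labels give no replicate numbers and each group is 1 library. Depth limits the small classes most: ratios needed 50 cells in both libraries, so blood endothelial-, neutrophil-like and other classes with few untreated cells have levels but no ratio to untreated skin.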
